A study of Mus musculus with 3 samples.

Results

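The genes described here are a module of 34 symbols of glycolysis, the pentose phosphate pathway and the response to low oxygen. They were listed by name, with earlier results of these data known. In the annotation used by the files they are 35 of 55536 gene entries, because Aldoa is the name of 2 entries, and they have 280 annotated isoforms. The RNA came from the chromatin fraction of macrophages grown from bone marrow of C57BL/6J mice and stimulated with 100 ng/ml lipid A, the part of bacterial endotoxin that Toll-like receptor 4 senses, for 90 minutes. Ribosomal RNA was depleted before total RNA sequencing. All 3 libraries belong to this 1 group and are called replicates 1, 2 and 3. They started from 1 µg, 250 ng and 500 ng of RNA in that order, so amount and replicate cannot be told apart, and all carry the same donor label, so a p-value here covers only how far these libraries differ, part of which may be technical. No unstimulated cells are analysed here, and a level says nothing of whether lipid A raised or lowered a gene. The sex and age of the mice were not recorded in the labels.

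Glycolysis splits glucose into pyruvate in a chain of enzymes in the cytosol, and lactate dehydrogenase and a lactate carrier let the chain run without oxygen. The pentose phosphate pathway branches off after the first step and makes NADPH and ribose phosphate. The hypoxia-inducible factors are pairs of an alpha subunit and Arnt; prolyl hydroxylases mark the alpha subunit and Vhl, part of a ubiquitin ligase, has it degraded when oxygen is present. Macrophages that meet bacterial products are known to rely more on glycolysis, and many glycolytic genes are targets of Hif1a. Chromatin-associated RNA holds transcripts that are being made or processed, so its levels need not follow those of mature mRNA.

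The 3 libraries held 11277198, 24965749 and 19794886 expected counts, and protein-coding genes took 68.4%, 40.2% and 50.3% of them. A count of 0 in a library therefore allows up to 0.266, 0.12 and 0.152 CPM (counts scaled to the library total) in replicates 1, 2 and 3, for 3 counts and counting error only. Of 10 macrophage markers, 7 were called above the typical gene and their summed level was 362 to 464 TPM (transcript abundance per length, scaled to a fixed library total), with Adgre1 alone at 221 ± 45.9 TPM (SD, n = 3). None of 8 neutrophil markers reached the count minimum, 4 of them had 0 counts in all libraries, and their sum was at most 1.51 TPM. The 5 B-cell markers summed to at most 0.12 TPM, and the 6 T- and NK-cell markers to 8.61 to 10.4 TPM, nearly all of it Il7r. Markers of megakaryocytes and red cells summed to 7.81 TPM in replicate 2, against 1.64 and 2.57 TPM in replicates 1 and 3, the highest of them Pf4; those of stromal and endothelial cells summed to 2.05 to 3.49 TPM and those of dendritic cells to 1.49 to 1.92 TPM. These sums use the alignment-based tables, and some markers differed in the alignment-free tables made from the same reads. There Cd3d had 14.9 TPM on average against 0.017, Pecam1 5.18 against 0.17 and Ms4a1 1.27 against 0.02. Il7r was close in both (9.93 against 9.38), and Cd14 was lower there (27.7 against 41.0). The cause of these differences was not tested. In bulk RNA, fewer cells of a type and less RNA per cell cannot be told apart.

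Levels were set against the other genes of the same library. The level of a gene is its log2(TPM + 1) minus the median of that value over protein-coding genes in the library, and a gene was called above or below when its level lay beyond 1 log2 unit from that median at an adjusted p under 0.05 (limma's treat test, Benjamini-Hochberg adjustment). Of the 31 entries whose mean expected count reached 10, 15 were called above, 5 below and 11 neither. Among all 13434 genes tested, 21.3% were called above and 21.3% below, against 48.4% and 16.1% of the module's tested entries. The median level was 1.36 log2 units over the 31 entries and -0.21 over all genes tested. The 31 entries are all protein-coding, and over the 10530 protein-coding genes tested the median was -0.004. Shares called were not counted over protein-coding genes alone. Without that minimum 2 entries were below, Epas1 and the second Aldoa entry. With a minimum of 100 counts none of the 5 was tested, and Pfkfb2 was called below instead (level -1.83, adjusted p = 0.0082). Of all genes, 24.6% were called below without a minimum and 10.6% with the minimum of 100. The calls above were all 3 hexokinases, 4 of 7 genes of lower glycolysis and 2 of 6 tested entries of upper glycolysis. They also held 1 of 3 carriers, 1 of 3 phosphofructokinase regulators and 1 of 2 pentose phosphate genes. For the hypoxia-inducible factors they were 2 of 3 subunits, 1 of 3 tested brakes and 0 of 1 tested target. Differences between these small groups were not tested.

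**Figure D1:**
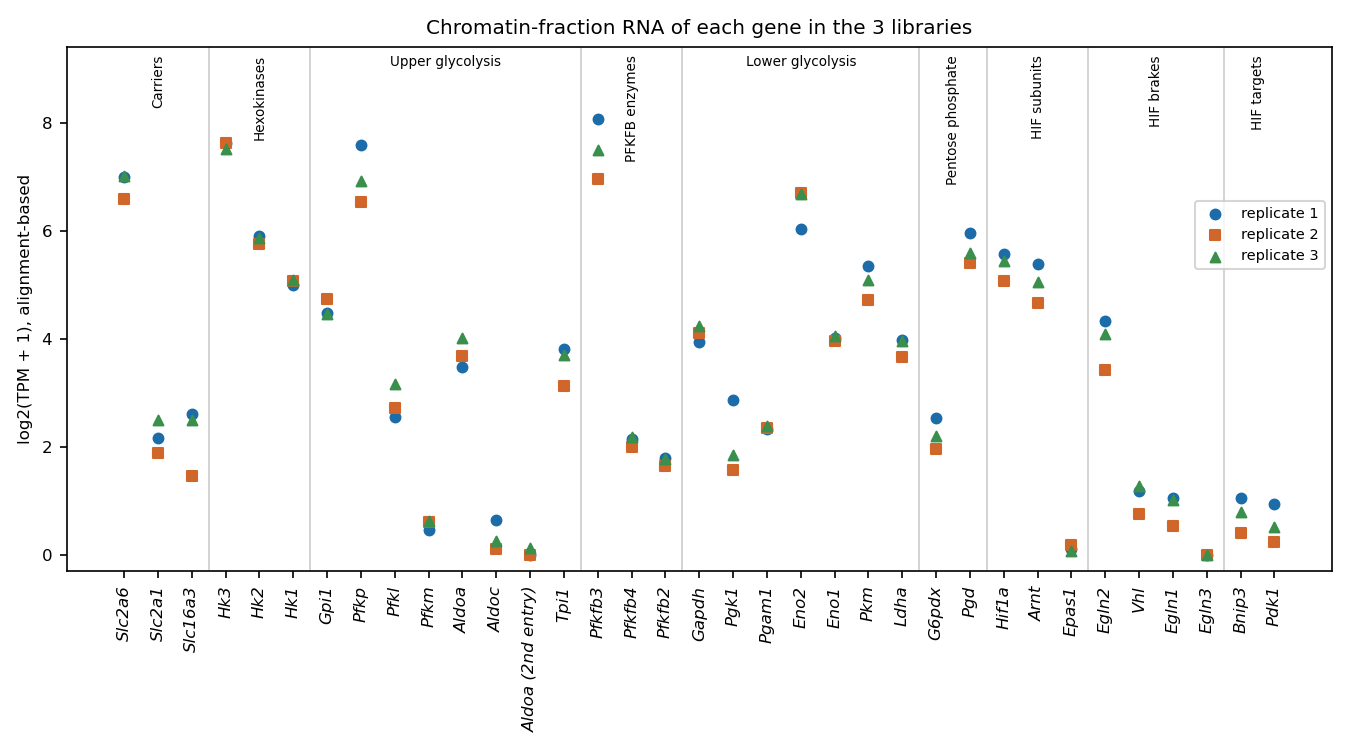
The plot of TPM by library gives log2(TPM + 1) from the alignment-based gene tables (vertical axis) for each of the 35 entries, ordered along the pathway, with 1 symbol per replicate. Hk3, Pfkfb3, Pfkp and Slc2a6 lie highest, while Egln3 is at 0 in every library and Epas1, Aldoc and the second Aldoa entry lie close to it.

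Among the carriers, Slc2a6, a hexose carrier of internal membranes, had by far the most RNA. It stood at 126.76, 94.98 and 127.64 TPM in replicates 1, 2 and 3, a level of 4.36 ± 0.07 log2 units (SD, n = 3; adjusted p = 1.19e-05, limma). Slc2a1, the main glucose importer of the plasma membrane, had 3.47, 2.70 and 4.64 TPM and was not called (level -0.32 ± 0.23). The difference, Slc2a6 minus Slc2a1, was 4.68 ± 0.16 on the log2(TPM + 1) scale, and each library had Slc2a6 at 27.5 to 36.5 times the TPM of Slc2a1. Slc16a3, which exports lactate, had 5.09, 1.75 and 4.63 TPM and was not called (level -0.31 ± 0.40); its value in replicate 2 was the lowest. Of the Slc2a6 signal, only 26.2 ± 10.2 TPM lay in isoforms typed protein-coding in the alignment-based tables, and 2 isoforms typed processed transcript held 41.6 and 41.4 TPM on average. With protein-coding isoforms alone, the difference from Slc2a1 was 2.61.

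The 3 hexokinases, which phosphorylate glucose and so trap it in the cell, were all called above. Hk3, the form typical of myeloid cells, had 195, 196 and 182 TPM, a mean of 191 ± 7.78 TPM next to 190 ± 72.6 for Pfkfb3, and a level of 5.09 ± 0.26 (adjusted p = 9.93e-06), higher than 98.4% of the genes tested. Hk2, the form known as inducible by low oxygen, had 59.0, 53.1 and 57.1 TPM (level 3.34 ± 0.16, adjusted p = 5.14e-05). Hk1, the form found in most tissues, had 31.0, 32.5 and 32.8 TPM (level 2.55 ± 0.27, adjusted p = 4.60e-04). The alignment-free tables put Hk3 at 317 TPM and Pfkfb3 at 319 TPM on average. The order of the hexokinases was the same in every library and the values of the 3 genes did not overlap. Hk1 minus Hk2 was -0.79 ± 0.11, Hk1 minus Hk3 -2.54 ± 0.09 and Hk2 minus Hk3 -1.74 ± 0.11 log2 units. How steady Hk3 was depended on the scaling: log2 CPM over library totals were 8.66, 9.01 and 8.80 (SD 0.17), and after normalisation by the trimmed mean of M values (TMM) they were 8.14, 9.47 and 8.87 (SD 0.67). Much of the Hk3 signal was in short isoforms, and protein-coding ones held 99.7 ± 27.4 of its TPM. Counted over those alone, Hk2 minus Hk3 was -1.09.

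In upper glycolysis the phosphofructokinase subunit genes, whose enzyme commits sugar to the pathway, differed most. Pfkp, the platelet-type subunit, had 190, 91.5 and 121 TPM (level 4.51 ± 0.32, adjusted p = 1.84e-05). Pfkl, the liver-type subunit, had 4.88, 5.61 and 7.89 TPM (level 0.31 ± 0.40, not called). Pfkm, the muscle-type subunit, had 0.37, 0.53 and 0.55 TPM (level -1.93 ± 0.31, adjusted p = 0.0037, called below). Pfkp minus Pfkl was 4.20 ± 0.71, Pfkp minus Pfkm 6.45 ± 0.62 and Pfkl minus Pfkm 2.24 ± 0.24 log2 units, with no overlap in any of these pairs. The Pfkp excess was largest in replicate 1, where its TPM was 38.9 times that of Pfkl, against 16.3 and 15.3 times in replicates 2 and 3. Pfkm was not called in the alignment-free tables, with 3.50, 0.997 and 2.60 TPM there (level -1.38, adjusted p = 0.075). Most Pfkp signal was not in coding isoforms: these held 7.54, 20.98 and 29.78 TPM, and over them Pfkp minus Pfkl was 2.39. Pfkm overlaps Senp1 on the opposite strand, which had 22.6 TPM on average. Whether the counting used strand is not given in the sources used here, so reads of such pairs may not be fully separated.

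Gpi1, the isomerase after hexokinase, had 21.21, 25.75 and 20.96 TPM (level 2.06 ± 0.40, adjusted p = 0.0032). It was not called on protein-coding isoforms alone, which held 2.47 ± 1.06 TPM at a level of 0.03 (adjusted p = 1), nor in the alignment-free tables, at a level of 1.49 (adjusted p = 0.054). Aldoa, the aldolase of most tissues, had 10.1, 11.8 and 15.2 TPM (level 1.22 ± 0.39, adjusted p = 0.29) and Tpi1, triose phosphate isomerase, 13, 7.68 and 12.03 TPM (level 1.04 ± 0.14, adjusted p = 0.68). Neither was called, and Aldoa would be without replicate 1 (level 1.45, adjusted p = 0.014). Aldoc, the brain-type aldolase, had 2, 3 and 2 counts and stayed under the minimum. Per length, Aldoa exceeded Aldoc 18.0-fold (95% exact counting interval 4.90 to 150), 154-fold (52.3 to 752) and 74.7-fold (20.5 to 619) in replicates 1, 2 and 3. The most abundant isoform of Aldoc differed in each library, and the length used for Aldoc was 254, 1440 and 463 bases. The counting intervals do not cover this. The second entry named Aldoa, which lies just upstream of the first on chromosome 7, had 0, 0 and 1 counts.

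The genes that set the pace of phosphofructokinase split in the same way. Pfkfb3, whose enzyme mainly makes the sugar phosphate that activates phosphofructokinase, had 267, 123 and 180 TPM and a level higher than 98.3% of genes tested. Pfkfb4 had 3.39, 3.01 and 3.56 TPM and Pfkfb2 2.48, 2.12 and 2.43 TPM, and neither was called (levels -0.39 ± 0.17 and -0.76 ± 0.16). Pfkfb3 minus Pfkfb4 was 5.40 ± 0.50 and Pfkfb3 minus Pfkfb2 5.77 ± 0.48 log2 units. Pfkfb4 minus Pfkfb2 was 0.37 ± 0.04, with the same sign in all 3 libraries, but it was -0.34 in the alignment-free tables and -0.18 over protein-coding isoforms, so that the order of this pair depends on how reads were given to isoforms. Pfkfb3 was highest in replicate 1 in TPM and in log2 CPM over library totals, at 8.81, 7.56 and 8.16 (SD 0.63), and closer together after TMM normalisation, at 8.29, 8.02 and 8.23 (SD 0.14). Protein-coding isoforms held 44.4 ± 8.13 TPM of Pfkfb3, and its most abundant isoform in the alignment-free tables was a retained-intron form of 646 bases, at 54.99 TPM.

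**Figure D2:**
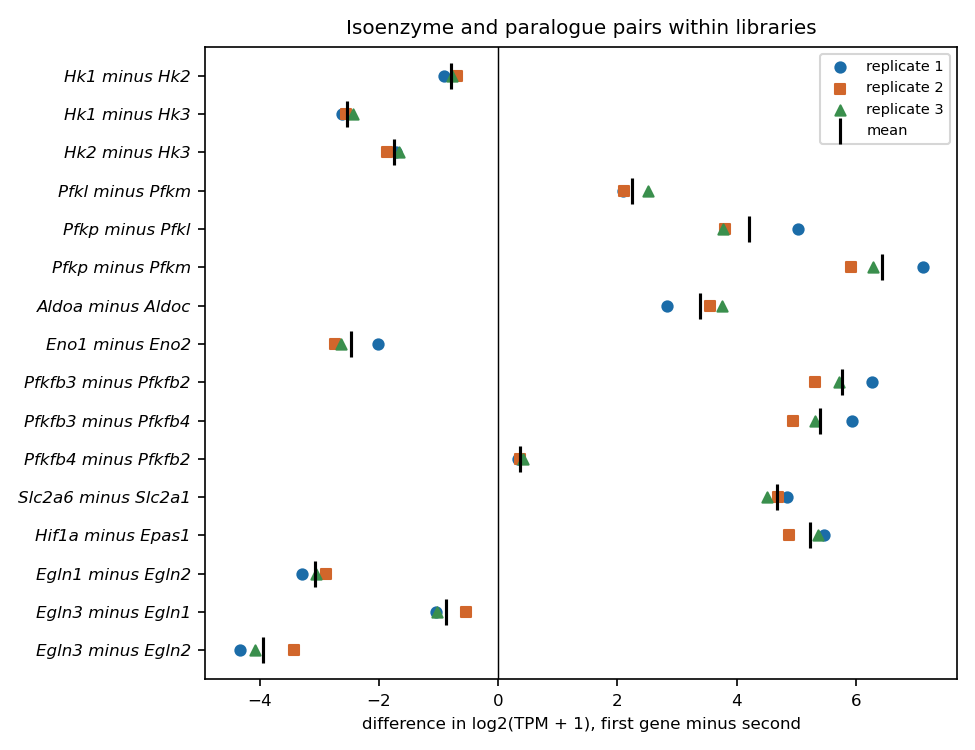
The plot of pair differences shows log2(TPM + 1) of the first gene minus the second within each library (horizontal axis), 1 symbol per replicate and a bar at the mean, for 16 pairs of related genes. Every pair keeps its sign in all 3 libraries; Pfkp minus Pfkm (6.45) is the widest and Pfkfb4 minus Pfkfb2 (0.37) the narrowest.

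Across the 16 pairs of isoenzymes and related regulators, the values of the 2 genes never overlapped and the sign was the same in 3 of 3 libraries. Many pairs share a gene, so they are not 16 separate results. How often any 2 genes of these libraries separate in this way was not counted. The exact two-sided permutation test on 3 libraries cannot go below p = 0.25, and it gave 0.25 for every pair (Benjamini-Hochberg adjusted p = 0.25 over the 16), so these differences rest on their size against the spread and not on the test.

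In lower glycolysis, Eno2, the enolase known from neurons, outran Eno1, the enolase of most tissues. Eno2 had 64.5, 103 and 102 TPM (level 3.97 ± 0.58, adjusted p = 1.02e-04) and Eno1 15.2, 14.6 and 15.6 TPM (level 1.51 ± 0.21, adjusted p = 0.027). Eno1 minus Eno2 was -2.46 ± 0.39 log2 units, and -2.13 over protein-coding isoforms only, which held 6.55 ± 1.31 TPM of Eno1 and 31.7 ± 2.09 TPM of Eno2. Eno2 was lowest in replicate 1, and its SD of log2 CPM was 0.69 after TMM normalisation and 0.24 over library totals. The call for Eno1 was lost without replicate 2 (adjusted p = 0.17) or replicate 3 (adjusted p = 0.16). It was also lost with the minimum of 100 counts.

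Gapdh, the dehydrogenase in the middle of the pathway and a common reference mRNA, had 14.2, 16.2 and 18.0 TPM (level 1.59 ± 0.33, adjusted p = 0.024). Its call was lost without replicate 2 (adjusted p = 0.14), without replicate 3 (adjusted p = 0.15) and in the alignment-free tables, where its TPM was 27.0, 8.68 and 14.7 and its level 0.97. It was also lost over protein-coding isoforms alone, which held 5.34 ± 1.88 TPM, and with the minimum of 100 counts. The gene shares long stretches with many others: 205 genes, 196 of them pseudogenes, matched its transcripts at 90% identity or more over at least 200 bases, and these together had 100, 32.1 and 40.6 TPM. Some of these are longer genes that contain such a stretch, and Gm17068 had the most signal among them. Expected counts of Gapdh were not whole numbers, as happens where reads are divided between genes. Iffo1, on the opposite strand and overlapping Gapdh, had 8.74 TPM on average.

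Pgk1 and Pgam1, the kinase and the mutase that follow Gapdh, had little RNA for genes of this pathway. Pgk1 had 6.29, 1.95 and 2.60 TPM (level -0.41 ± 0.50) and Pgam1 4, 4.08 and 4.2 TPM (level -0.15 ± 0.25), and neither was called. Pgk1 was highest in replicate 1, while Pgam1 was even across libraries in these TPM. In the alignment-free tables Pgam1 was not even, with 10.4, 3.82 and 6.34 TPM in replicates 1, 2 and 3. The 4 pseudogenes that matched Pgk1 had 0.64, 1.48 and 1.37 TPM in sum, lowest in replicate 1. Whether reads were divided unevenly between them and Pgk1 was not tested. Ldha, which turns pyruvate into lactate, had 14.7, 11.7 and 14.5 TPM (level 1.36 ± 0.08, adjusted p = 0.067). It lay just short of a call: without replicate 1 the adjusted p was 0.025, in the alignment-free tables it was 0.013, and over protein-coding isoforms 0.023, each with Ldha above. A total of 21 pseudogenes matched Ldha, with 7.83, 1.81 and 3.22 TPM in sum.

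Pkm encodes pyruvate kinase in 2 forms that use 1 of 2 mutually exclusive exons, and both exons are printed because the files separate them. They lie on the forward strand of chromosome 9 (mm10, GENCODE M21) as exon 9 of Pkm-202, the M1 form of adult muscle, and exon 9 of Pkm-201, the M2 form of proliferating and immune cells. Each has 167 bases, 103 of them identical at the same position (61.7%), and capitals mark the 64 positions at which they differ.
M1 exon, chr9:59675029-59675195: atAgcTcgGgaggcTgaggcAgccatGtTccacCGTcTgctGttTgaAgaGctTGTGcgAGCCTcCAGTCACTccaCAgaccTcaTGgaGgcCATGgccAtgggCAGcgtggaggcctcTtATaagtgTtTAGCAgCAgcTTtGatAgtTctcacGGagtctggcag
M2 exon, chr9:59675568-59675734: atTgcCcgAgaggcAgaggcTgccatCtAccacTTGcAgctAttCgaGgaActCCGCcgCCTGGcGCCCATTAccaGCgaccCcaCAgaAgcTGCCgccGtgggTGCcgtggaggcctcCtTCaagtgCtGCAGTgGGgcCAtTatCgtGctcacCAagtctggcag
Pkm as a whole had 39.8, 25.4 and 33.2 TPM (level 2.56 ± 0.08, adjusted p = 2.56e-04). The M2 isoform had 9.84, 8.33 and 11.2 TPM and the M1 isoform 2.97, 2.23 and 4.83 TPM in the alignment-based tables. M2 was thus 76.8%, 78.9% and 69.9% of the sum of both, a mean of 75.2% ± 4.70 (SD, n = 3). The alignment-free tables gave 77.0%, 74.3% and 66.5%, a mean of 72.6% ± 5.47. Both tables put M2 above M1 in every library. Most Pkm signal bore on neither exon: isoforms without either had 27.0, 14.9 and 17.1 TPM in the alignment-based tables. The level of Pkm as a whole also touches Gm49759, a gene on the same strand that overlaps it and had 8.54 TPM on average.

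Of the pentose phosphate genes, Pgd, the dehydrogenase of the second NADPH-making step, had 61.3, 41.5 and 46.9 TPM (level 3.15 ± 0.13, adjusted p = 6.49e-05). G6pdx, the dehydrogenase that opens the branch, had 4.8, 2.9 and 3.61 TPM (level -0.27 ± 0.10) and was not called. The values of the 2 genes were far apart in every library. Isoforms typed retained intron carried 77.3% ± 4.34 of Pgd in the alignment-free tables, and its protein-coding isoforms had 13.5 ± 1.84 TPM against 1.38 ± 0.19 TPM for those of G6pdx. Ikbkg, which overlaps G6pdx on the opposite strand, had 9.67 TPM on average.

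The subunits of the hypoxia-inducible factors were unequal. Hif1a, the alpha subunit best known in macrophages, had 46.6, 32.4 and 42.5 TPM, and its level of 2.86 ± 0.03 (adjusted p = 1.08e-04) had the smallest SD of the 31 entries. Arnt, the shared partner, had 40.7, 24.4 and 32.0 TPM (level 2.53 ± 0.13, adjusted p = 3.04e-04). Epas1, the other alpha subunit, had 6, 19 and 6 counts, or 0.08, 0.13 and 0.05 TPM (level -2.38 ± 0.28, adjusted p = 8.04e-04). Hif1a minus Epas1 was 5.24 ± 0.31 log2 units. Epas1 depended on the quantification: in the alignment-free tables it had 4.70, 1.12 and 2.11 TPM, a level of -1.31, and was no longer called (adjusted p = 0.13).

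Of the genes that restrain these factors, Egln2 had the most RNA. This prolyl hydroxylase gene had 19.2, 9.68 and 15.9 TPM (level 1.44 ± 0.23, adjusted p = 0.047), and the call was lost without any 1 of the replicates, at adjusted p = 0.054, 0.071 and 0.26 without replicates 1, 2 and 3. Egln1, the hydroxylase usually held to be the main oxygen sensor, had 1.07, 0.45 and 1.03 TPM and was called below (level -1.63 ± 0.08, adjusted p = 0.0093). Egln1 minus Egln2 was -3.07 ± 0.20 log2 units. Egln3, the third hydroxylase and itself a known target of the factors, had 0 counts in all 3 libraries. Set against a floor of 3 counts per library, Egln1 was at least 12.3-, 9.85- and 17.6-fold higher and Egln2 at least 220-, 212- and 272-fold higher than Egln3 per length in replicates 1, 2 and 3. Vhl had 1.27, 0.68 and 1.42 TPM and was called below (level -1.43 ± 0.12, adjusted p = 0.040).

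The calls for Egln1 and Vhl were fragile. Without replicate 2 the adjusted p was 0.062 for Egln1 and 0.17 for Vhl, and without replicate 3 it was 0.081 and 0.17. Vhl had 22.1, 1.72 and 4.82 TPM in the alignment-free tables, a level of -0.22, and there the short isoform Vhl-204, typed nonsense-mediated decay, alone took 12.7 TPM in replicate 1.

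Pdk1 and Bnip3, 2 further genes known as targets of the factors, were low. Pdk1, which keeps pyruvate out of mitochondria, had 0.92, 0.18 and 0.43 TPM (level -1.94 ± 0.15, adjusted p = 0.0022). Bnip3, which marks mitochondria for removal, had 10, 6.74 and 6 counts, a mean under the minimum, and 1.06, 0.33 and 0.74 TPM. Replicate 2 was the lowest for both genes in TPM. The 5 genes that matched Bnip3 at 90% identity or more over at least 200 bases had 52, 33 and 43 counts in sum. In the alignment-based tables these matching genes had 0.24, 0.11 and 0.13 TPM in sum in replicates 1, 2 and 3. In the alignment-free tables they had 19.1, 7.99 and 13.8 TPM, and Bnip3 itself had 2.73, 0.475 and 1.80 TPM. Whether reads of Bnip3 were given to the matching genes was not tested.

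**Figure D3:**
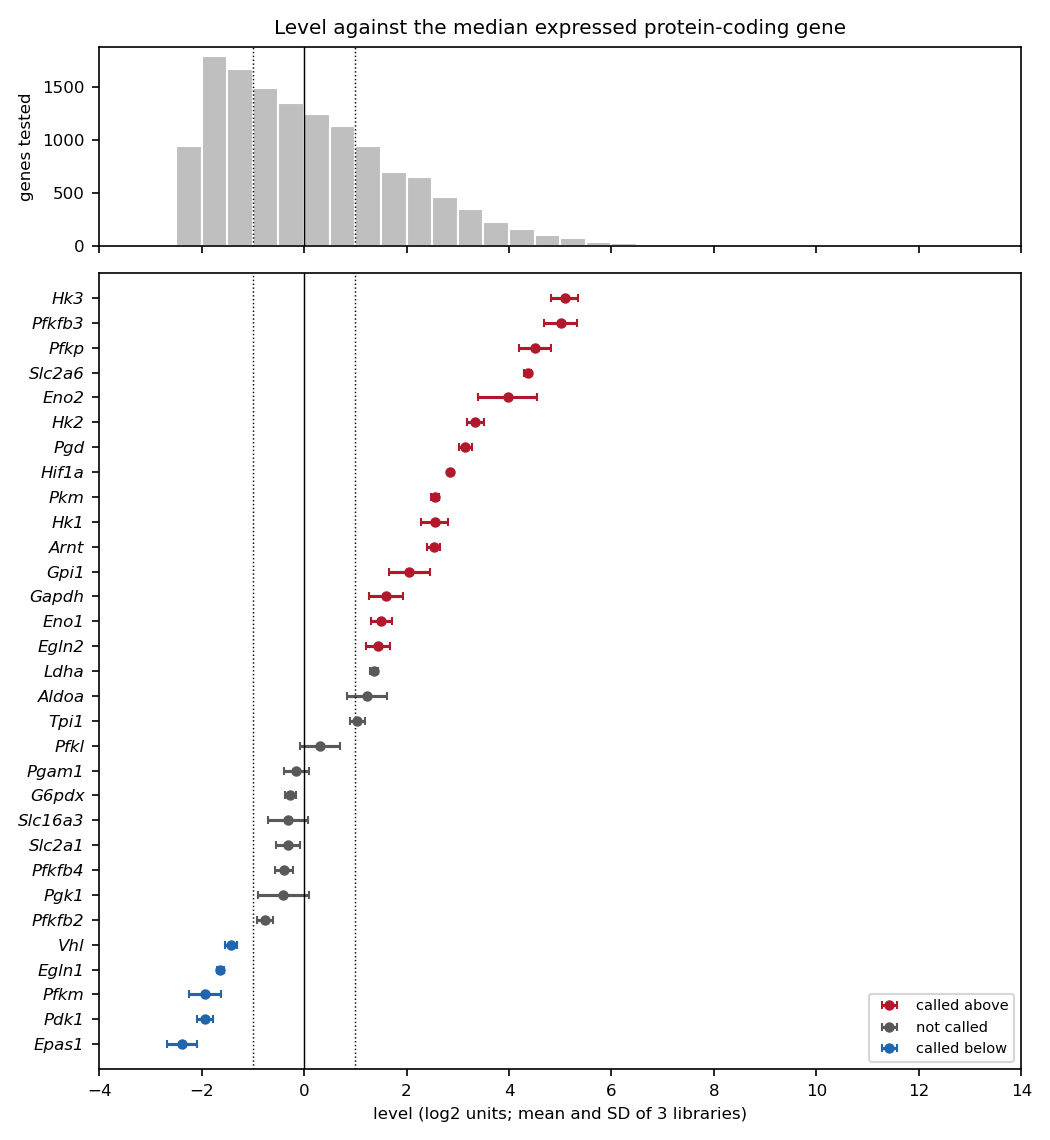
The plot of levels has the distribution of all 13434 genes tested on top (genes per bin of level) and, below, the level of the 31 entries over the count minimum as mean and SD of 3 libraries, in log2 units against the median protein-coding gene. Dotted lines mark the bounds of -1 and 1; the 15 entries called above run from Egln2 (1.44) to Hk3 (5.09) and the 5 called below from Epas1 (-2.38) to Vhl (-1.43).

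Other genes of these pathways were looked up in lists drawn up by name, also with earlier results of these data known. Of 22 further genes of glycolysis and pyruvate use, 11 were over the minimum, 1 was called above and 4 below, with a median level of -1.27 over the 11. The highest were Mpc1, a subunit of the mitochondrial pyruvate carrier (37.1, 22.9 and 21.2 TPM, level 2.27 ± 0.33, adjusted p = 0.0012), Pdha1 (level 0.26) and Adpgk (level -0.27). The lowest were Slc2a3, a glucose carrier (level -2.20 ± 0.21, adjusted p = 0.0011), Slc16a1, a lactate carrier (level -2.02), and Bpgm (level -1.92), all called below; the remaining call, Tigar (level -1.48), is named after its value was seen. Ldhb, the lactate dehydrogenase subunit of heart, had 0 counts in every library. Of 8 further pentose phosphate genes, 7 were over the minimum, 0 were called above by limma (0 also at an unadjusted p under 0.05) and 2 below, Rbks (level -1.66) and H6pd (level -1.64). Rpe (level 0.75), Tkt, transketolase (8.73, 5.31 and 6.62 TPM, level 0.46 ± 0.11), Pgls (level -0.01), Taldo1, transaldolase (level -0.86), and Rpia (level -1.09) were not called.

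Of 24 further genes of the hypoxia response, 16 were over the minimum, 4 were called above and 2 below, and the median level was -0.35. Vegfa, the angiogenic growth factor, had 31.2, 47.1 and 74.7 TPM (level 3.11 ± 0.71, adjusted p = 8.44e-04). Plin2, a lipid droplet protein (level 3.07 ± 0.37), and Kdm3a, a histone demethylase (level 2.74 ± 0.11), were also above; so was Ndrg1 (level 2.35 ± 0.35), named after its value was seen. The lowest were Ak4 (level -2.17) and Adm (level -1.75), both called below, and Mxi1 (level -1.25), not called. Hif1an, which hydroxylates the alpha subunits at another site, had 4.6, 3.07 and 4.75 TPM and was not called (level -0.16 ± 0.10).

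Isoforms typed retained intron held a similar median share of signal in the module and in other genes that have such an isoform. Among the 31 entries with a mean of at least 1 TPM in the alignment-free tables, their median share was 40.5% of TPM, against 20.1% of 11149 protein-coding genes. Of the 31, 22 have such an isoform in the annotation, and restricted to genes that have one, the medians were 47.8% over the 22 and 44.8% over 6836 genes. The share was above 50% in 8 entries, and how many of all genes pass 50% was not counted. It was 91.9% ± 5.58 for Gapdh, 77.3% ± 4.34 for Pgd, 71.5% ± 3.95 for Pfkp, 68.9% ± 7.48 for Tpi1 and 68.4% ± 5.80 for Gpi1 (SD, n = 3). It was 14.8% ± 2.53 for Hk1, 13.8% ± 4.01 for Pkm and 3.56% ± 1.44 for Pfkfb2. Hk2, Hk3, Slc2a1, Slc2a6, Egln2, Vhl, Pfkm, Epas1 and Pdk1 have no isoform of that type, so their share of 0 is set by the annotation. The alignment-based tables gave 64.6% for Gapdh, 86.7% for Gpi1, 34.2% for Pkm, 20.4% for Hk1 and 7.90% for Pfkfb2, and a median of 44.8% over 27 entries against 28.9% over 8703 genes.

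**Figure D4:**
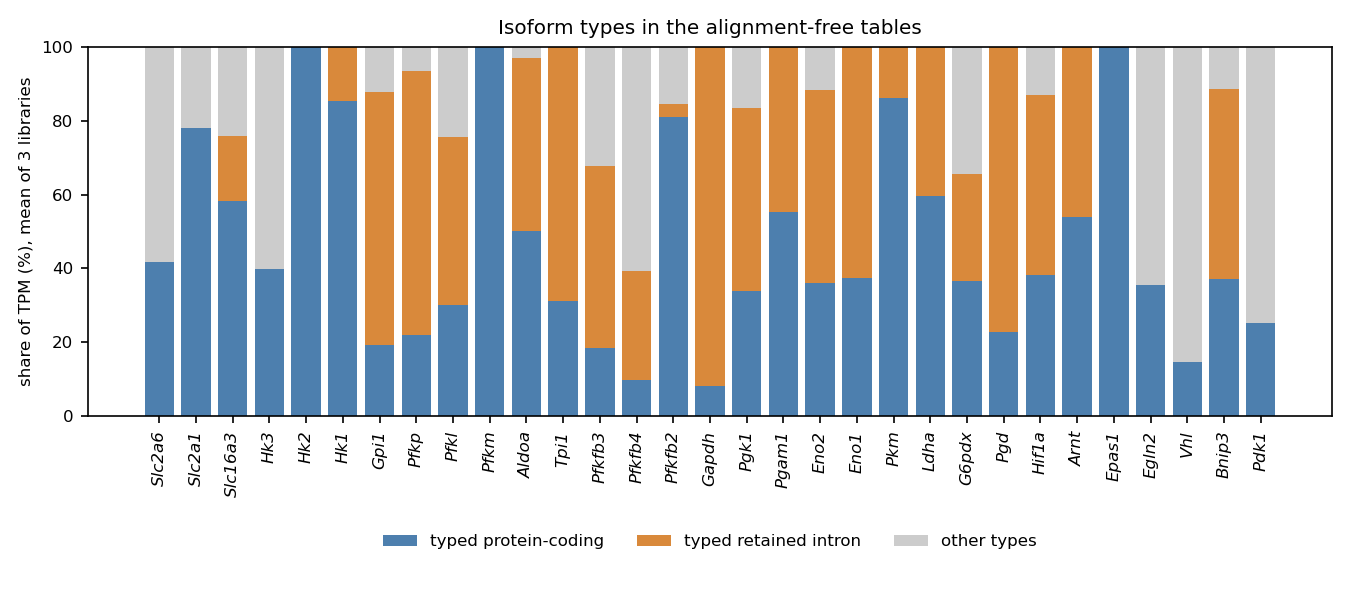
The plot of isoform types stacks, for each of the 31 entries with a mean of at least 1 TPM in the alignment-free tables, the share of TPM (%, mean of 3 libraries) in isoforms typed protein-coding, retained intron or otherwise. Gapdh (91.9%), Pgd (77.3%) and Pfkp (71.5%) have the tallest retained-intron parts, while Hk2, Pfkm and Epas1 are wholly protein-coding.

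The 2 quantifications of the same reads were compared by the difference in level, alignment-free minus alignment-based. None of the 31 entries was called higher or lower by more than 1 log2 unit, also not at an unadjusted p under 0.05 (0 entries; limma's treat test); of 13427 genes, 1.9% were called higher and 0.633% lower. With a pseudocount of 0.1 in place of 1, Epas1 was called higher. The median difference was -0.02 over the module and -0.23 over all genes. The entries farthest to the alignment-free side were Vhl (1.22 ± 0.99), Epas1 (1.07 ± 0.32) and Pfkfb2 (0.77 ± 0.33), and the farthest to the other side were Gapdh (-0.63 ± 0.45), Gpi1 (-0.57 ± 0.02) and Pgd (-0.52 ± 0.06). For Vhl replicate 1 stood apart from the other two, and for Gapdh it lay closest to 0.

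**Figure D5:**
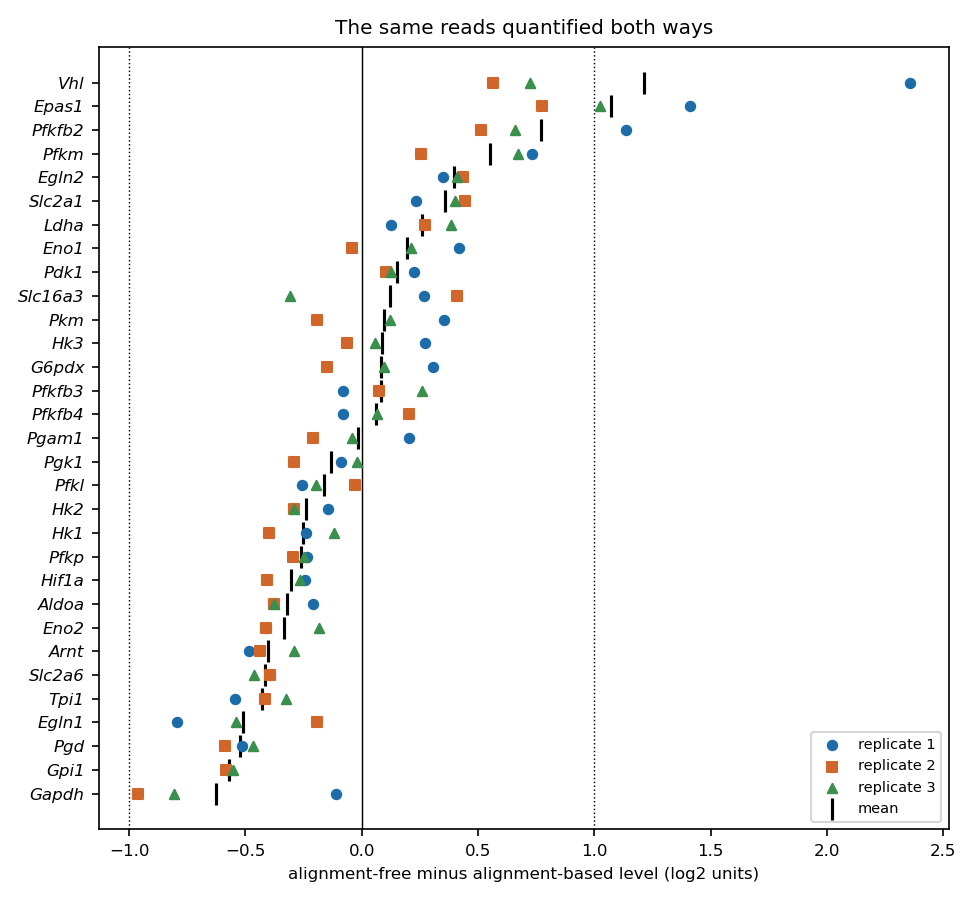
The plot of the quantification difference gives the alignment-free minus the alignment-based level (log2 units, horizontal axis) of the 31 entries, 1 symbol per replicate and a bar at the mean, with dotted lines at -1 and 1. All entries but Vhl, Epas1 and Pfkfb2 lie within the dotted lines in all libraries, and Vhl (mean 1.22) and Epas1 (mean 1.07) have means beyond them.

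Spread between libraries was measured on counts. The SD of log2 CPM (edgeR, TMM-normalised) had a median of 0.33 over the 31 entries and 0.40 over all genes tested, and 11 of the 31 lay above the median of all genes. Without replicate 1 both fell, to 0.17 over the module and 0.17 over all genes. Over library totals the medians were 0.35 and 0.56, and the order of the genes differed: the lowest SDs were those of Gapdh (0.03), Arnt (0.09) and Tpi1 (0.12) after TMM normalisation, and those of Hk1 (0.06), Pfkm (0.08) and Ldha (0.09) over library totals, where Gapdh, Arnt and Tpi1 had 0.48, 0.46 and 0.45. The TMM factors were 1.44, 0.726 and 0.956 for replicates 1, 2 and 3.

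The start of the genes was searched for the core of the hypoxia response element, ACGTG, on both strands, in windows from 250 bases before to 50 after each annotated start (RefSeq, GRCm38.p6). Of the 34 symbols, 33 had windows, 50 in all. The core was found in 25 of the 50 windows (50%), against 21.1% of 20150 windows of protein-coding genes and 19.6% of all 32851 windows. By symbol it was found in 21 of the 33, and no share by symbol was counted for other genes. Windows of 1 gene can overlap, as those of Aldoa do, so the same match can count more than once. A published NF-kB consensus was found in 4 of the 50 (8%), against 9.43% of windows of protein-coding genes. A match is a run of letters and not a measured binding site, and genes at either end of the range had them or lacked them: Slc2a6, Pfkp and Eno2, all called above, had none, while Pfkm, called below, had 3 in 1 of its windows. The 250 bases before the start are printed for Ldha, which had the most matches, for Hif1a and for Hk3, the gene with the highest level in the alignment-based tables. Capitals mark ACGTG and its reverse complement CACGT, which overlap in the palindrome CACGTG.
Ldha, chr7:46845554-46845803, forward strand: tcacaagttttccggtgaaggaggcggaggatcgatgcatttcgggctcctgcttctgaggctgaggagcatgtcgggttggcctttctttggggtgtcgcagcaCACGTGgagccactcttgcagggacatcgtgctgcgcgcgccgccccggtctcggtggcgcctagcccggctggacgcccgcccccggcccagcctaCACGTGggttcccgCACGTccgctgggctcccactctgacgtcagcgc
Hif1a, chr12:73907617-73907866, forward strand: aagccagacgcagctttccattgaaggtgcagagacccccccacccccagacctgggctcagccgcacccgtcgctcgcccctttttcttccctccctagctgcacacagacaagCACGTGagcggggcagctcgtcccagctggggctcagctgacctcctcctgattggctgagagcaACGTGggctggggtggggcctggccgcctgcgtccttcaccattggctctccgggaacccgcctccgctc
Hk3, chr13:55021386-55021635, reverse strand: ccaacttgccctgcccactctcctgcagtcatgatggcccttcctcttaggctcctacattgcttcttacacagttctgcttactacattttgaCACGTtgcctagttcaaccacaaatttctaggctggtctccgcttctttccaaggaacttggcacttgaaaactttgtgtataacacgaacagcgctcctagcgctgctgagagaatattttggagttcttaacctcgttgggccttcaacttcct
The printed stretches hold 5 matches for Ldha, 3 for Hif1a and 1 for Hk3, each palindrome counting once on either strand.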

How the data were processed

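Total RNA-seq of chromatin-fraction RNA was analysed in 3 libraries of 1 group, taken from the labels. The deposited gene and transcript tables hold expected counts and TPM made from an alignment to the transcriptome (mm10, GENCODE M21), per the deposited description files, and the column names are those RSEM writes. A second deposited transcript table holds estimated counts and TPM made without an alignment file, with the column names of kallisto, per the file headers. For aligner, versions, strand setting and multi-mapping reads, nothing is stated (not given in the sources used here). The deposited TPM columns each sum to 1000000 over every entry, so 1 abundant RNA moves all others; expected counts were not scaled. Reads inside introns that no annotated isoform retains have no entry, and short isoforms weigh heavily in TPM.

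Gene levels were log2(TPM + 1) minus the median of protein-coding genes whose mean expected count reached 10, tested with limma 3.58.1 (treat, bound 1 log2 unit) in R 4.3.3 over all genes over that minimum, with Benjamini-Hochberg adjustment at 0.05. Log2 CPM used edgeR 4.0.16 (prior count 2), with TMM factors or with library totals alone. The same fit compared the 2 quantifications. Isoenzyme pairs were compared within libraries by exact sign-flip permutation. Near-identical genes were found with blastn 2.17.0. The tests were checked on simulated data. Alternatives were other pseudocounts, minimums, scalings (edgeR, DESeq2 1.42.0), quantifications and leaving out each replicate; protein-coding isoforms alone and CPM over library totals were added after the values were seen. The module, its pairs and the gene lists were chosen with earlier results of these data known. All module genes are named; of the other lists, the 3 highest and 3 lowest over the minimum and 6 further genes (Vegfa, Ldhb, Tkt, Taldo1, Slc2a3, Hif1an).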

Additional observations from a re-analysis of the deposited data

How the results depend on the processing

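No paired analysis was possible because all libraries belong to 1 group. The count of entries called above (15) stayed within 1.5 times under every alternative, from 10 to 18, and from 12 to 16 with 1 replicate left out. The count called below (5) was 2 without a count minimum (Epas1 and the second Aldoa entry), 1 with a minimum of 100, which leaves out all 5 and calls Pfkfb2, 2 in the alignment-free tables and 2 over protein-coding isoforms only, and ranged from 3 to 5 with 1 replicate left out (3 without replicate 2 or without replicate 3). These counts are out of 23 to 34 entries tested. With the minimum of 100, levels shifted by a median of -1.07 log2 units. Gpi1, Gapdh, Eno1 and Egln2 were among the calls above that were lost there. Under the same alternatives 17.8% to 23.8% of all genes were called above and 7.11% to 27.1% below. The lowest share below, 7.11%, was that over protein-coding isoforms only, and in the alignment-free tables it was 22.7%. No called entry changed sign. In the quantification difference, 1 entry was called higher with a pseudocount of 0.1 and 0 otherwise. The median retained-intron share (40.5%) was 29.3% without a TPM minimum and ranged from 35.6% to 43.9% with 1 replicate left out. Pfkfb4 minus Pfkfb2 (0.37) turned to -0.34 in the alignment-free tables and -0.18 over protein-coding isoforms. Of the other values of single pairs under an alternative, 74 moved by less than 1 SD and 36 by more, with their sign kept. The 74 include every mean with 1 replicate left out. Such a mean could not move by 1 SD or change sign, because each pair had 1 sign in all 3 libraries. All 36 larger moves came from another pseudocount, quantification or set of isoforms. The cause of these shifts was not tested. Genes with few counts (Epas1, Pfkm, Pdk1, Egln1, Vhl) are limited by depth, and with 3 libraries of 1 group no response to lipid A can be measured.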
